A study of Mus musculus with 74 samples.

Results

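Integrins are paired receptors of an alpha and a beta subunit that hold cells to the extracellular matrix and to other cells. The genes described here are 10 integrin subunit genes of microglia and other brain cells, Itgax, Itgam, Itgal, Itgb2, Itgb5, Itgav, Itga4, Itga6, Itgb1 and Itga9. They were taken by gene symbol from a table of 49912 genes. All 10 were present in the table, and all 10 passed the filter on low counts both in microglia, where 14087 genes were tested, and in the other cells, where 16915 were.

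Each integrin binds as one alpha chain joined to one beta chain, so a receptor on the surface needs both genes. Itgax (CD11c), Itgam (CD11b) and Itgal (the alpha chain of LFA-1) pair with Itgb2 (CD18), the beta-2 chain of leukocytes, and bind complement fragments, fibrinogen and ICAM adhesion molecules. Itgav pairs with Itgb5 to bind vitronectin, osteopontin and the debris-bridging protein MFG-E8, and Itga4, Itga6 and Itga9 pair with Itgb1 to bind VCAM1, laminins, fibronectin and tenascins. Resting microglia carry CD11b at a high level and little CD11c, and CD11c is a known mark of microglia that respond to damaged myelin or amyloid.

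The study fed mice that were Trem2 +/+ (wild type), Trem2 +/- (heterozygote) or Trem2 -/- (knockout) either control chow or chow with 0.2% cuprizone, a copper chelator that kills oligodendrocytes, for 5 or 12 weeks. Whole brains were dissociated, viable Cd11b-positive cells were sorted as microglia, and all other viable cells were collected as a second pool, here called other cells. A 3' tag library was made from the poly-adenylated RNA of each pool, giving 74 libraries from 37 mice. Every group held 3 mice, except the heterozygotes at 12 weeks, with 4 on each chow, and the wild types on control chow at 12 weeks, with 2. Each group held 1 male. The labels give neither the age of the mice nor which part of Trem2 was deleted, so that whether the tags lie outside that part is not known, and week on the chow also carries age. Itgam encodes the antigen of the sort, so that its level in the Cd11b-positive pool is set by the gate and is no finding. In bulk libraries such as these, fewer cells that express a gene and less RNA per cell cannot be told apart.

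Itgax, Itgam and Itgal lie on chromosome 7, on the plus strand of GRCm38 as annotated in GENCODE M21, and the other members also lie on plus strands. Itgal spans 127296260 to 127335138, Itgam 128062640 to 128118491 and Itgax 128129547 to 128150657, so that Itgax begins a short way beyond the end of Itgam. Itgb2 spans 77530252 to 77565708 on chromosome 10 and Itgb5 33829665 to 33949338 on chromosome 16. On chromosome 2 lie Itga6, from 71745616 to 71858416, Itga4, from 79255426 to 79333123, and Itgav, from 83724397 to 83806916. Itgb1 spans 128685654 to 128733200 on chromosome 8 and Itga9 118606690 to 118901003 on chromosome 9. Of the 10 genes, 7 had a promoter entry in RefSeq for GRCm38.p6, and Itgal, Itgb2 and Itga6 had none. The 250 bases upstream of the RefSeq start are printed for Itgax and Itgb5, the members that were called for the diet, and for Itgam, the neighbour and sort antigen. Capitals mark matches to 2 motifs searched on both strands: the AP-1 motif TGANTCA, which reads alike on both strands, and the core of the PU.1 motif, GAGGAA or its complement TTCCTC. The motifs share no letters in these windows.
Itgax, plus strand, chr7:128129300-128129549: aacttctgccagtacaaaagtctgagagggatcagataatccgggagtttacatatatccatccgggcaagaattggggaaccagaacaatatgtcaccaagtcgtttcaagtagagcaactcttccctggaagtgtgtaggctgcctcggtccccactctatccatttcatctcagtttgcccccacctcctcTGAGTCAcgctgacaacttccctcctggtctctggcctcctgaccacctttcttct
Itgam, plus strand, chr7:128062390-128062639: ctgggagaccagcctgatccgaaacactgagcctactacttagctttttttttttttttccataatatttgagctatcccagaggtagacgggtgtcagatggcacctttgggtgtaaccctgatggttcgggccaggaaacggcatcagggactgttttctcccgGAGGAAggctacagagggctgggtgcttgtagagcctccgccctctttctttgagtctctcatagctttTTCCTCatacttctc
Itgb5, plus strand, chr16:33829415-33829664: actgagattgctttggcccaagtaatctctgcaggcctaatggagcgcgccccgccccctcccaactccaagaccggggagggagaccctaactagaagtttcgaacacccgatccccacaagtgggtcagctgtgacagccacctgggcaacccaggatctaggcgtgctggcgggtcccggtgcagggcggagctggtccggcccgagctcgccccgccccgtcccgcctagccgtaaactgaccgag
The Itgax window held 1 AP-1 match, beginning 56 bases upstream of the start, and no PU.1 core. The Itgam window held 2 PU.1 cores, beginning 84 and 15 bases upstream, the first on the plus and the second on the minus strand, and no AP-1 match. The Itgb5 window held neither. Of 32851 RefSeq promoter windows of the same length, 6.75% held an AP-1 match and 23.3% a PU.1 core. A match of letters is a description of the window and shows no binding.

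Microglia libraries held 1043961 to 3945694 counts and libraries of other cells 1255465 to 3441041. The 10 microglia markers summed to 16660 to 43310 CPM (CPM is the count of a gene per unit of library size, scaled by TMM factors) in microglia libraries and to 333.5 to 833 in the other cells, so that the Cd11b-positive pool carried the markers of its label. The 10 neutrophil markers summed to 114 to 7649 CPM in microglia libraries and to 7.90 to 52.2 in the other cells, and 6 microglia libraries lay above 3000. Trem2 was at 98.8 to 256 CPM in the 12 knockout microglia libraries and at 404 to 1037 in the 11 wild-type ones, and the knockouts were lower in all 4 comparisons with wild type, by 1.88 to 2.62 on the log2 scale, without overlap. On control chow the heterozygotes lay below wild type without overlap at both weeks (-0.83 and -1.19), but this was not called (edgeR adjusted p = 0.988 and 0.348), and on cuprizone, at 473 to 1051 CPM, they overlapped wild type. In heterozygotes at 12 weeks Trem2 was higher on cuprizone than on control chow (1.40 ± 0.28, edgeR adjusted p = 0.0012). Along the first principal component of log2 CPM, 4 microglia libraries and 2 of the other cells stood apart, and results that move without them are given as such below.

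Itgax was the member that edgeR called for the chow in the most groups, and Itgb5 was called in heterozygotes at 12 weeks. In wild-type microglia at 5 weeks Itgax was at 14.9, 22.6 and 32.3 CPM on control chow and at 144, 172 and 247 CPM on cuprizone. In heterozygotes at 5 weeks it was at 1.06, 12.3 and 22.2 CPM on control chow and at 130.4, 169.5 and 202 on cuprizone. Knockouts at 5 weeks held 0.471, 0.621 and 16.8 CPM on control chow and 21.3, 28.7 and 37.9 on cuprizone. Every cuprizone library lay above every control library of its genotype, but the 3 knockout cuprizone libraries lay within or just above the range of the wild-type controls.

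At 12 weeks the spread between genotypes on cuprizone was wider. The wild-type microglia held 16.1 and 33.3 CPM of Itgax on control chow and 349.9, 499 and 589.6 on cuprizone. The heterozygotes held 7.46, 15.7, 24.0 and 27.8 CPM on control chow and 352, 373, 425 and 568 on cuprizone. The knockouts held 8.87, 11.2 and 13.1 CPM on control chow and 25.2, 47.0 and 49.9 on cuprizone. Wild types and heterozygotes on cuprizone were interleaved, and all 7 lay at least several times above the highest knockout.

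**Figure D1:**
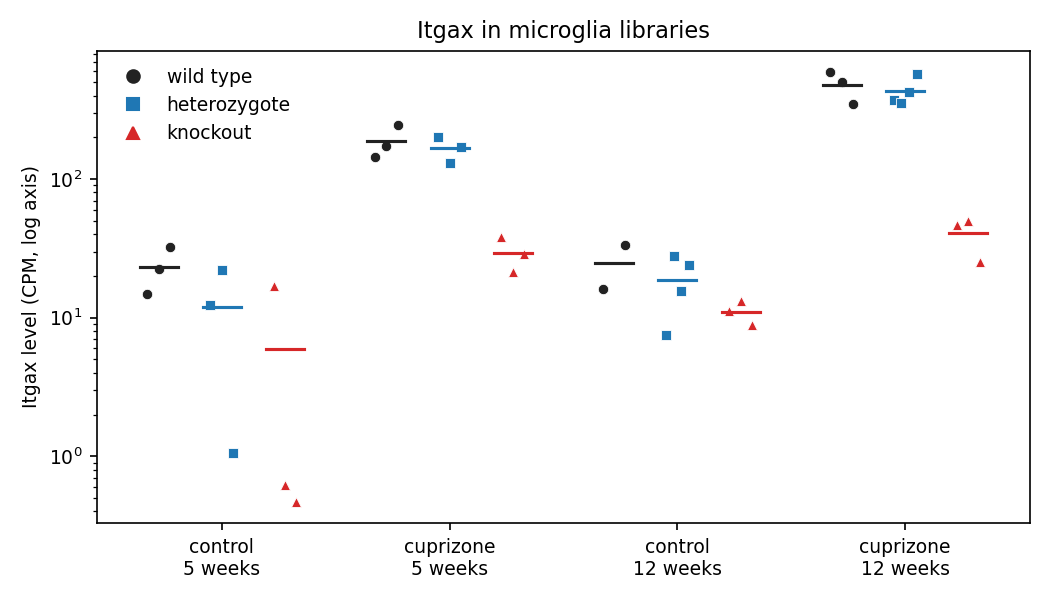
Level of Itgax in each microglia library (CPM, log axis) by chow and week, with the mean of each group as a bar, in wild types (circles), heterozygotes (squares) and knockouts (triangles). The 12-week cuprizone libraries of wild types and heterozygotes sit between 349.9 and 589.6 CPM, and those of knockouts between 25.2 and 49.9.

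The diet response of Itgax on the log2 scale, tested with edgeR's quasi-likelihood test over 14087 genes with Benjamini-Hochberg adjustment, was 3.81 ± 0.68 (SE) in heterozygotes at 5 weeks, with an adjusted p of 0.00476. It was 4.25 ± 0.82 in wild types at 12 weeks (edgeR adjusted p = 0.00654) and 4.55 ± 0.60 in heterozygotes at 12 weeks (edgeR adjusted p = 1.29e-05). In wild types at 5 weeks it was 2.96 ± 0.65 and just missed the threshold of 0.05 (edgeR adjusted p = 0.051). With DESeq2 size factors in place of TMM the adjusted p for that group was 0.0496, and with limma voom it was 0.000452. Itgax in that group was also called by edgeR with no filter on low counts and without the libraries that stood apart. It was not called by DESeq2's Wald test or by edgeR with no sex term. With each library left out in turn it was called in 0 of 6 fits (edgeR adjusted p = 0.0501 to 0.392). In knockouts the response was 2.37 ± 0.70 at 5 weeks and 1.80 ± 0.66 at 12 weeks, and neither passed the edgeR test (adjusted p = 0.573 and 0.639). With no filter on low counts edgeR called both (2.39, adjusted p = 0.000337, and 1.82, adjusted p = 0.0408).

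The knockout value at 5 weeks rested on 1 control library. In 2 of the 3 control libraries Itgax had 1 count each, and in that of animal 945, one of the libraries that stood apart, it had 30. Without that library the response was 5.55 on the log2 scale, with an edgeR adjusted p of 7.81e-05. Both values rest on 2 control libraries of 1 count each. The response was also called without all the libraries that stood apart, with the same limit. In wild types at 12 weeks the call was lost without either of the 2 control libraries (edgeR adjusted p = 0.172 without animal 1932 and 0.224 without animal 9145) and without the 6 libraries rich in neutrophil markers (4.53, adjusted p = 0.167), of which animal 9145 is one. Both heterozygote calls held with every library left out in turn.

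Among all 10 genes, edgeR called 1 higher for the diet in heterozygotes at 5 weeks, where 0.263% of all genes tested were called higher and 0.0142% lower. It called 1 higher in wild types at 12 weeks, where 0.958% of all genes were called, 0.689% higher and 0.27% lower, and 2 higher in heterozygotes at 12 weeks, where 2.55% were called, 1.88% higher and 0.667% lower. In wild types at 5 weeks it called 0 of 10 (0.142% of all genes), and 2 of 10 had an unadjusted p under 0.05 (6.82% of all genes). In knockouts it called 0 of 10 at 5 weeks (0.0568% of all genes) with 3 at an unadjusted p under 0.05 (6.71%), and 0 of 10 at 12 weeks (0.0284%) with 1 (7.44%). In heterozygotes at 5 weeks 3 of 10 were under that unadjusted p (8.15%). In these 3 groups without a call DESeq2's Wald test called 0, and limma voom called Itgax in the wild types. In the other 3 groups DESeq2 and voom called the same genes as edgeR, except that DESeq2 added Itga9 in wild types at 12 weeks.

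The shares of genes whose groups did not overlap set a background for such a pattern. Itgax lay higher on cuprizone without overlap in all 6 groups, where 4.46% to 13.4% of all genes did.

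Between genotypes, Itgax on cuprizone at 12 weeks fell by 3.57 ± 0.66 on the log2 scale in knockouts against wild type (40.7 ± 13.5 against 479 ± 121 CPM, mean ± SD, n = 3 each) with an edgeR adjusted p of 0.00427. It fell by 3.4 ± 0.64 in knockouts against heterozygotes (edgeR adjusted p = 0.0045). In each of these comparisons Itgax was the 1 member called of 10, where 0.44% and 1.05% of all genes were called. The call against heterozygotes was at an adjusted p of 0.0505 without the knockout library of animal 981. Heterozygotes and wild types differed by -0.17 ± 0.55 (edgeR adjusted p = 0.99).

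On cuprizone at 5 weeks the knockouts were again lower without overlap, where 4.86% of all genes were against wild type and 3.94% against heterozygotes. Itgax was not called by edgeR there. The difference from wild type was -2.67 ± 0.63 (edgeR adjusted p = 0.165) and that from heterozygotes -2.51 ± 0.63 (edgeR adjusted p = 0.295). Of 10 genes 0 were called in each, against 0.0781% and 0.0639% of all genes, with 1 gene in each at an unadjusted p under 0.05 (5.14% and 5.61% of all genes). DESeq2's Wald test and limma voom both called Itgax in both comparisons, at adjusted p of 0.0018 and 0.000493 against wild type and 0.00325 and 0.00269 against heterozygotes. Without the libraries that stood apart edgeR also called both (-2.66, adjusted p = 0.000993, and -2.52, adjusted p = 0.0027).

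On control chow Itgax was at a mean of 5.98 CPM in knockouts at 5 weeks and 23.3 in wild types, and the groups overlapped through the library of animal 945. The difference was -2.08 ± 0.71 with an edgeR adjusted p of 1, and -5.25 without that library (edgeR adjusted p = 0.000201). The latter again rests on knockout controls of 1 count each. At 12 weeks the knockout controls were below both wild-type controls, by -1.12 ± 0.74 (edgeR adjusted p = 0.793), where 8.65% of all genes were lower without overlap. Of 10 genes edgeR called 0 between knockouts and wild types on control chow at 5 weeks (0.0071% of all genes) and at 12 weeks (0.0213%), and 3 (4.33% of all genes) and 1 (6.9%) were under 0.05 before adjustment. The Wald test of DESeq2 and limma voom called 0 there too. At 5 weeks edgeR called Itgax lower with no filter on low counts, and also without the libraries that stood apart, animal 945 among them. For heterozygotes against wild types edgeR called 0 of 10 in all 4 comparisons, where 0% of all genes were called in 3 of them and 0.121% on cuprizone at 12 weeks. In the controls at 5 weeks 1 member was under 0.05 before adjustment (4.7% of all genes), on cuprizone at 5 weeks 1 (4.26%) and in the controls at 12 weeks 0 (7.2%), and DESeq2 and voom called 0 in these 3. On cuprizone at 12 weeks 2 members had an unadjusted p under 0.05 (8.55% of all genes), and DESeq2 and voom each called 1, Itgb2.

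Whether the diet response itself differed by genotype was tested as an interaction. For Itgax at 12 weeks the response in knockouts minus that in wild types was -2.45 ± 0.98 (edgeR adjusted p = 0.361), and minus that in heterozygotes -2.75 ± 0.87 (adjusted p = 0.287). At 5 weeks these were -0.59 ± 0.95 and -1.44 ± 0.95. Of 10 genes edgeR called 0 in each of the 4 interactions, where 0.0071%, 0.0142%, 0.0284% and 0.128% of all genes were called, and 1 gene in each had an unadjusted p under 0.05 (4.54%, 6.88%, 10.6% and 9.86% of all genes). DESeq2's Wald test called Itgax in 1 of them, knockouts against heterozygotes at 12 weeks (-2.72, adjusted p = 0.0395), and voom called 0. With no filter on low counts edgeR called Itgax in both 12-week interactions (adjusted p = 0.0492 and 0.00312).

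Between 12 and 5 weeks on cuprizone, the Itgax groups did not overlap in wild types or heterozygotes and overlapped in knockouts, where 5.94%, 3% and 4.56% of all genes were higher without overlap. The differences were 1.33 ± 0.60 in wild types (edgeR adjusted p = 0.701), 1.31 ± 0.57 in heterozygotes (0.707) and 0.43 ± 0.61 in knockouts (0.873). Of 10 genes edgeR called 0 in each of these and in the controls pooled over genotypes, where 0.0994%, 0.0213%, 0% and 0.0071% of all genes were called. The numbers at an unadjusted p under 0.05 were 2, 5, 1 and 2 (6.98%, 7.02%, 9.34% and 7.94% of all genes), DESeq2 called 0, and voom called Itgax in wild types (1.33, adjusted p = 0.00476) and heterozygotes (1.33, adjusted p = 0.0182).

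Ordered by mean, Itgax ran from 5.98 CPM in knockout controls at 5 weeks to 479 in wild types on cuprizone at 12 weeks. The lowest of these means was carried by the library of animal 945, at 16.8 CPM, with 0.471 and 0.621 in the others of the group. The knockouts on cuprizone, at 29.3 and 40.7 CPM, stood next above the wild-type controls, at 23.3 and 24.7. Of the 11 neighbouring pairs of groups in that order, 9 overlapped. The 2 that did not were the step from knockouts at 12 weeks to heterozygotes at 5 weeks on cuprizone, and the step from wild types at 5 weeks to heterozygotes at 12 weeks. In each of the other 9 genes all 11 neighbouring pairs overlapped. The share of all genes with such gaps was not counted, and the groups were ordered by the same values, so the gaps are a description only.

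Itgam, which encodes CD11b and is the neighbour of Itgax, was at a median of 1010 CPM over the 37 microglia libraries, from 497 to 1602. Its group means spanned 1.65-fold. No diet response of Itgam passed the test, and the 6 ran from -0.65 ± 0.29 in heterozygotes at 5 weeks to 0.42 ± 0.29 in knockouts at 5 weeks. On cuprizone at 12 weeks the wild types held 786, 842 and 1017 CPM of Itgam, the heterozygotes 641, 841, 889.7 and 1091, and the knockouts 503, 881 and 1145. These groups overlapped throughout.

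Itgal, the alpha chain of LFA-1 of lymphocytes and other leukocytes, was low and scattered. It had 0 counts in 8 of 37 microglia libraries, a median of 7.33 CPM and a highest value of 40 CPM. Its within-group coefficient of variation had a median of 98.4% over the 12 groups, the widest of the members in microglia, and it was called in no comparison within microglia. On cuprizone at 5 weeks wild types held 12.7, 21.9 and 33.2 CPM of Itgal and knockouts 0, 0.435 and 9.39, without overlap (-2.90 ± 1.73, edgeR adjusted p = 0.986). Among controls at 12 weeks wild types held 14.7 and 38.8 CPM and knockouts 0, 4.61 and 6.82, again without overlap (-3.09 ± 1.87, edgeR adjusted p = 0.768). Of all genes 4.86% and 8.65% were lower without overlap in these comparisons. Each of the 10 T and NK cell markers, of cells that carry LFA-1, had a median of 0 over the microglia libraries, and they summed to at most 19.3 CPM.

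Itgb2, the shared beta partner of CD11b, CD11c and the alpha chain of LFA-1, was highest in heterozygotes on cuprizone at 12 weeks. Those 4 libraries held 418, 566, 584 and 621 CPM, against 224, 238 and 282 in wild types and 177, 301 and 334 in knockouts on the same chow. The heterozygotes did not overlap either group, where 4.59% of all genes were higher without overlap than in wild types and 5.42% lower in knockouts than in heterozygotes, but they overlapped their own controls, at 177, 234, 376 and 512 CPM. The difference was 1.17 ± 0.31 from wild type (edgeR adjusted p = 0.114) and, knockouts against heterozygotes, -1.06 ± 0.31 (adjusted p = 0.0688), and neither was called.

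Other tools placed Itgb2 on the other side of the threshold. Heterozygotes against wild types it was called by DESeq2 (1.18, adjusted p = 0.0156) and by limma voom (1.11, adjusted p = 0.0481), and by edgeR without the heterozygote of animal 1040, the lowest of the 4 (1.37, adjusted p = 0.0445). Knockouts against heterozygotes it was called by DESeq2 (adjusted p = 0.0337). Neutrophils also carry Itgb2, and the 10 neutrophil markers summed to 114 to 349 CPM in those 4 heterozygote libraries, 708 to 1150 in the wild types and 606 to 6053 in the knockouts. The heterozygotes were thus lowest in neutrophil markers where they were highest in Itgb2, without overlap in either. Of these markers 0 of 10 were called between heterozygotes and wild types, where 0.121% of all genes were. In knockouts 1 of 10 was called higher than in heterozygotes, where 0.298% of all genes were. Of the 10 markers Ly6g alone had a median of 0 over the microglia libraries. The part of the neutrophil markers in the Itgb2 difference was not tested.

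**Figure D2:**
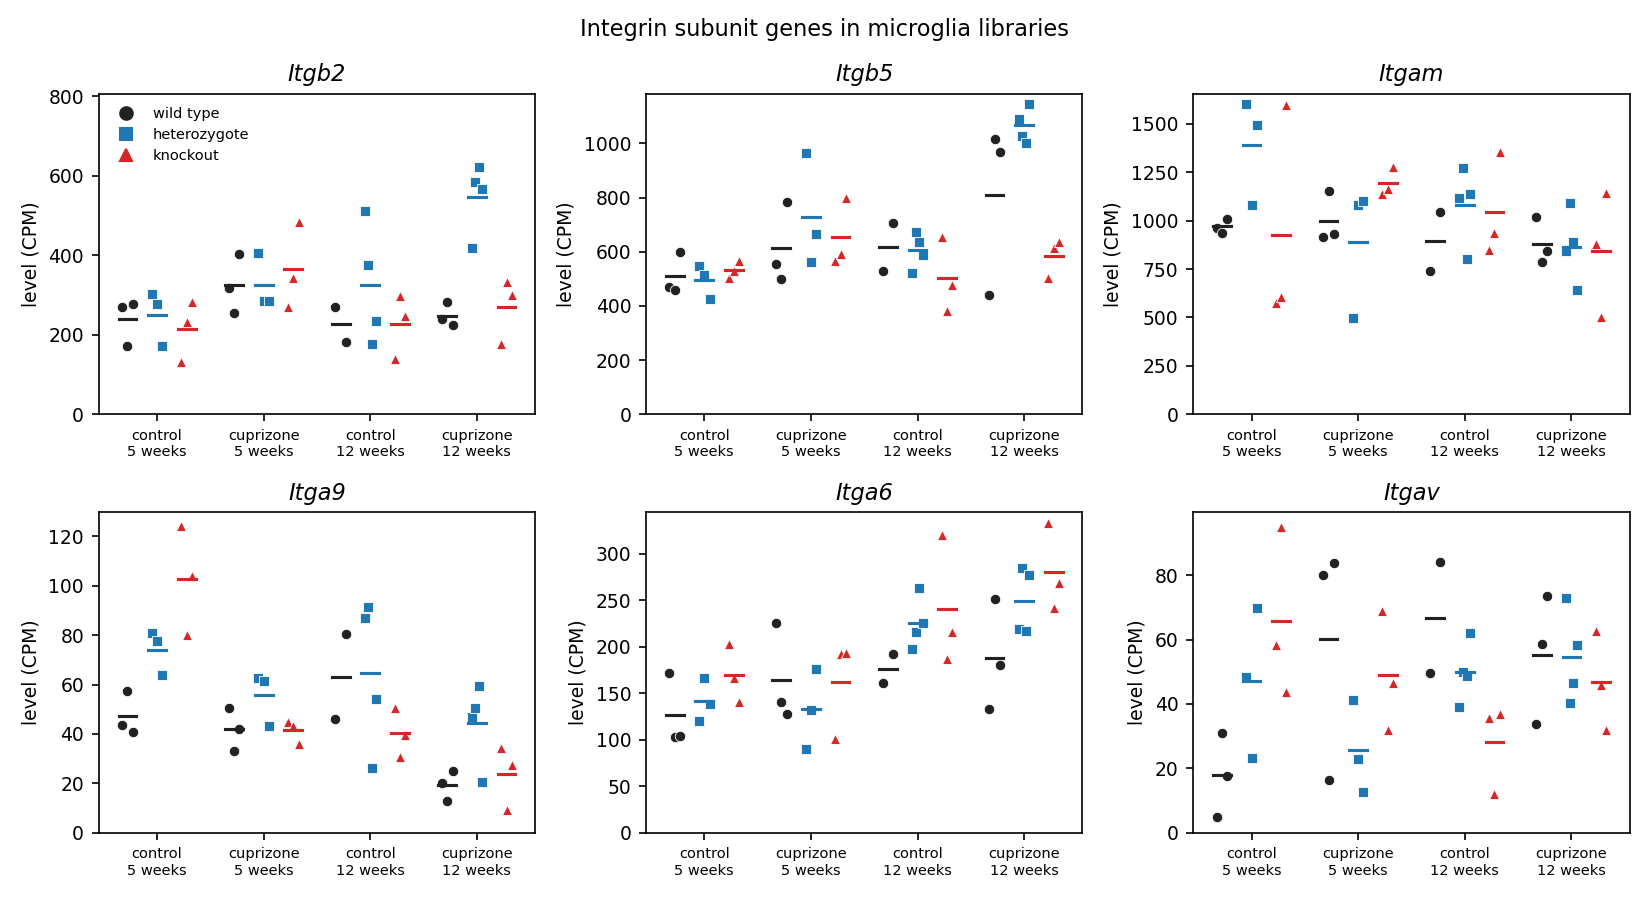
Level of 6 integrin genes in each microglia library (CPM, linear axes) by chow and week, with the mean of each group as a bar and symbols for genotype. Itgb2 and Itgb5 are highest in the 4 heterozygotes on cuprizone at 12 weeks, with Itgb2 at 418 to 621 CPM and Itgb5 at 1003 to 1146.

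Itgb5, the beta chain of the alpha-v beta-5 receptor, was the second member called for the diet. Heterozygotes at 12 weeks held 523, 589, 636 and 674 CPM on control chow and 1003, 1027, 1090 and 1146 on cuprizone, with no overlap and a narrow spread in both groups. Itgb5 rose by 0.82 ± 0.23 there (edgeR adjusted p = 0.0318). The call lay close to the threshold: it was lost without any of 7 of the 8 libraries (edgeR adjusted p from 0.0433 to 0.123 over the 8), without the libraries that stood apart (0.86, adjusted p = 0.052) and with no filter on low counts (0.80, adjusted p = 0.0543).

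Wild types at 12 weeks held 527.5 and 706 CPM of Itgb5 on control chow and 442, 968 and 1015 on cuprizone. There 2 cuprizone libraries lay above both controls and 1, animal 1746, lay below both, and the response was 0.39 ± 0.29 (edgeR adjusted p = 0.637). Knockouts at 12 weeks held 382, 477.5 and 654 CPM on control chow and 504, 613 and 636 on cuprizone, a response of 0.21 ± 0.26 (edgeR adjusted p = 0.907). All knockouts on cuprizone lay below all heterozygotes, by -0.87 ± 0.25 (edgeR adjusted p = 0.0637), a difference called by DESeq2 (adjusted p = 0.0202) and limma voom (adjusted p = 0.0425). At 5 weeks the groups also did not overlap in heterozygotes (0.56 ± 0.26, edgeR adjusted p = 0.586) or knockouts (0.29 ± 0.26, adjusted p = 0.876), where 6.05% and 5.3% of all genes were higher without overlap.

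In knockouts on cuprizone at 12 weeks 4 members lay lower than in heterozygotes with no overlap, where 5.42% of all genes did: Itgax, Itgb2, Itgb5 and Itgb1. The median difference of the 10 genes was -0.88, against -0.02 over all genes tested. Both comparisons of these knockouts use the same knockout libraries. Against wild type, 1 member, Itgax, lay lower without overlap, where 7.02% of all genes did, and the median of the 10 was -0.23, against 0.00 over all genes (-0.0014).

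Itgav, the alpha chain that joins Itgb5, did not follow it. It was at a median of 46.5 CPM in microglia, from 4.78 to 95.1, and no diet response passed the test. The 2 widest responses went in opposite directions at 5 weeks: wild types held 4.78, 17.6 and 31.1 CPM on control chow and 16.4, 79.9 and 83.7 on cuprizone (1.63 ± 0.58, edgeR adjusted p = 0.511), while heterozygotes held 23.3, 48.5 and 69.7 on control chow and 12.6, 23.0 and 41.2 on cuprizone (-0.97 ± 0.57, adjusted p = 0.66). The groups overlapped in both. Between control knockouts and wild types Itgav also turned about with the week. At 5 weeks the knockouts held 43.8, 58.4 and 95.1 CPM, all above the wild types (1.83 ± 0.58, edgeR adjusted p = 1), and at 12 weeks 12.1, 35.6 and 36.8, all below the wild types at 49.5 and 84.1 (-1.36 ± 0.62, edgeR adjusted p = 0.709). Of all genes 3.7% lay higher and 8.65% lower without overlap in these comparisons, and neither was called. Itgav overlaps 2 genes on the other strand, Gm13684 and Dnmt3l-ps1, and whether counting used the strand is not given in the sources used here.

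Of the beta-1 family, Itgb1 itself, the common beta chain of laminin and fibronectin receptors, was at 236 to 602 CPM in microglia and its group means spanned 1.69-fold. Its 6 diet responses lay between -0.48 ± 0.32 and 0.35 ± 0.28, and none passed the test. In knockouts at 12 weeks the cuprizone libraries of Itgb1, at 268, 304 and 316 CPM, lay below the controls, at 339, 349.9 and 396, with a difference of -0.29 ± 0.29 (edgeR adjusted p = 0.877). Of all genes 5.37% lay lower without overlap there.

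Itga4, the alpha chain of VLA-4 that binds VCAM1, had 0 counts in 5 of 37 microglia libraries and a median of 11.1 CPM. Its responses had standard errors of 1.26 to 1.52 on the log2 scale, so that differences of many-fold could also go uncalled. In wild types at 12 weeks the controls held 11.1 and 36.98 CPM and the cuprizone libraries 20, 23.5 and 35.7. Itga4 overlaps Cerkl on the other strand, so counts of the pair could be shared. Itga9 overlaps 2 genes on the other strand, Gm10157 and Gm2415, with the same limit. Itga6 overlaps 4 genes of the table, of which Gm13663 and Gm13662 lie on its own strand, where counting by strand would not part them.

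Itga6, the alpha chain of laminin receptors, had diet responses of -0.07 to 0.38, and none was called. On cuprizone at 5 weeks heterozygotes held 90.6, 132 and 176 CPM, and at 12 weeks 217, 219, 278 and 285. Knockouts held 101, 192.1 and 194 CPM at 5 weeks and 242, 268 and 333 at 12 weeks. In wild types it was at 165 and 188 CPM on average at 5 and 12 weeks, with overlap. The heterozygote and knockout groups did not overlap between weeks, where 3% and 4.56% of all genes were higher without overlap. The differences were 0.88 ± 0.30 and 0.78 ± 0.31, and neither was called by edgeR (adjusted p = 0.707 and 0.438). In controls pooled over genotypes the difference was 0.56 ± 0.18 (edgeR adjusted p = 0.42), with overlap. In heterozygotes on cuprizone 4 members lay higher at 12 weeks without overlap, Itgax, Itgb2, Itgb5 and Itga6, where 3% of all genes did, and the median of the 10 genes was 0.82, against -0.01 over all genes.

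Itga9, the alpha chain of a receptor for tenascin, osteopontin and VCAM1, had diet responses opposite in sign to those of Itgax in all 6 groups, from -0.17 to -1.71, and none was called. Wild-type controls at 12 weeks held 46.1 and 80.4 CPM and the cuprizone libraries 12.9, 20 and 24.8, with no overlap. The difference was -1.71 ± 0.55 (edgeR adjusted p = 0.141), and DESeq2 called it (-1.78, adjusted p = 0.0286). In knockouts at 5 weeks the controls held 80.2, 104 and 124 CPM and the cuprizone libraries 36.1, 43.3 and 44.9, with no overlap and a difference of -1.31 ± 0.49 (edgeR adjusted p = 0.72). Heterozygotes at 12 weeks overlapped, at 26.1 to 91.6 CPM on control chow and 20.7 to 59.6 on cuprizone. Itga9 was lower without overlap in 3 of the 6 diet comparisons, where 4.35% to 11.3% of all genes were.

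**Figure D3:**
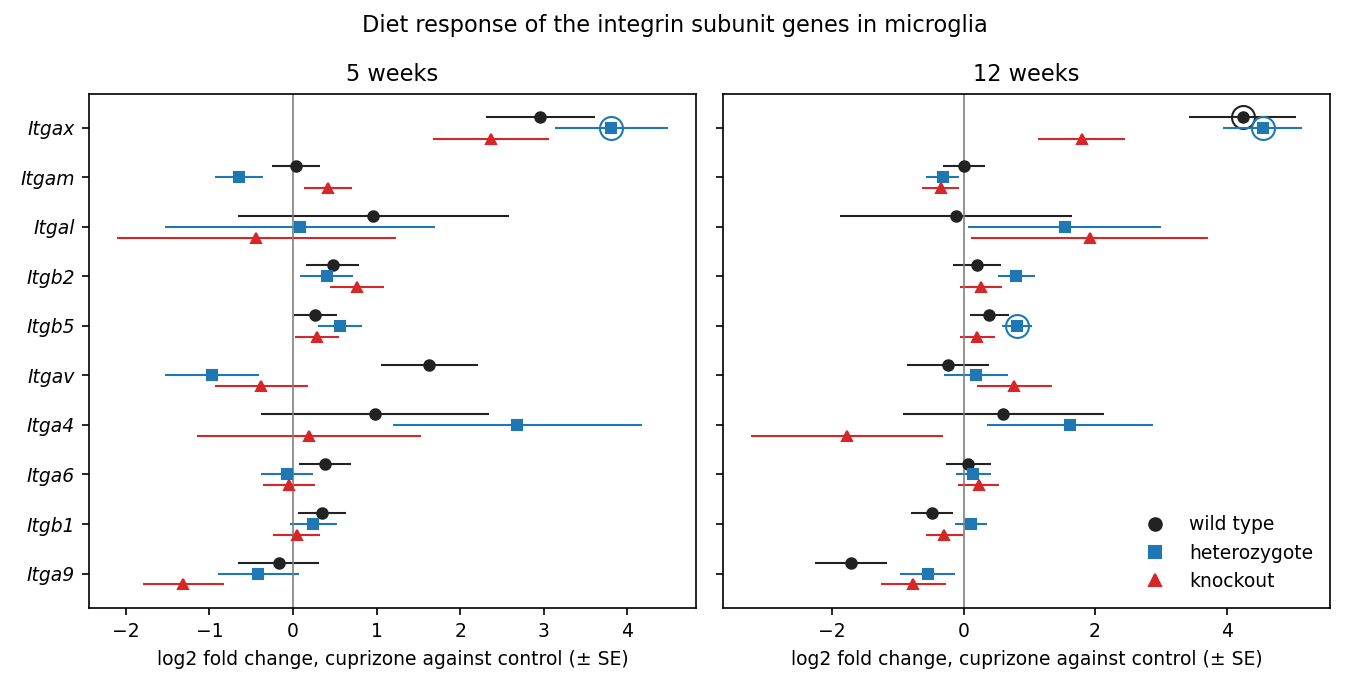
Log2 fold change of cuprizone against control chow in microglia for the 10 genes at 5 and 12 weeks, with the standard error as a bar and symbols for genotype, where a ring marks an edgeR adjusted p under 0.05. The 4 rings are Itgax in heterozygotes at both weeks and in wild types at 12 weeks, and Itgb5 in heterozygotes at 12 weeks.

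Markers of macrophages at the borders of the brain, which sort with microglia by CD11b, had lower sums on cuprizone in wild types and heterozygotes. The 8 border macrophage markers summed to 844 to 1150 CPM in wild-type controls at 12 weeks and to 412 to 608 on cuprizone. In heterozygotes at 12 weeks they summed to 538 to 1261 on control chow and to 287 to 664 on cuprizone. There 2 of 8 were called lower, where 0.667% of all genes were. In knockouts at 12 weeks they summed to 646 to 1211 and 773 to 1116. At 5 weeks the sums were 1101 to 1596 on control chow and 567 to 868 on cuprizone in wild types, 1134 to 1501 and 648 to 1091 in heterozygotes, and 873 to 1253 and 913 to 1433 in knockouts. At that week 0 of 8 markers were called, where 0.0568% to 0.277% of all genes were. Over the 37 microglia libraries their sum and Itgax, both on a log2 scale, had a Pearson correlation of -0.68, and none of the 8 markers had a median of 0. Libraries share their depth and their cells between these values, and the part of border macrophages in the Itgax levels was not tested. The 6 dendritic cell markers, of cells that carry CD11c, summed to 11.3 to 25.1 CPM in wild types on cuprizone at 12 weeks, where Itgax was at 349.9 to 589.6, and to 1.85 and 13.9 in their controls. Flt3, Xcr1 and Clec9a of that list had a median of 0 in microglia libraries.

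In the pool of other cells no integrin gene was called. Over 8 diet and 4 genotype comparisons edgeR made 0 calls in 120 tests, where 0.0296% to 0.497% of all genes were called for the diet and 0% between genotypes. Before adjustment 2 of the 120 were under 0.05, where 2.45% to 8.9% of all genes were in the 12 comparisons: Itgb1 in heterozygotes at 12 weeks (0.54 ± 0.25) and Itgav in wild types at 12 weeks (-1.38 ± 0.66). Neither the Wald test nor voom made a call. In wild types at 5 weeks Itgb2 lay higher (1.55) and Itgb5 lower (-0.89) on cuprizone without overlap, where 5.35% and 4.04% of all genes did so. Itgax in these cells was at 0 to 6.29 CPM in 36 of 37 libraries. The exception, at 17.7 CPM, was a wild type on cuprizone at 5 weeks, whose microglia library held 247. Averaged over genotypes, the diet responses of the 10 genes had a median of 0.06 at 5 weeks and -0.07 at 12 weeks, against 0.05 and 0.04 over all genes.

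Between the 2 pools of the same wild-type brains, Itgax, Itgam, Itgb2 and Itgb5 were many times higher in the Cd11b-positive cells. In 5 mice on control chow edgeR called 7 of 10 genes higher in microglia and 0 lower, where 35.6% of all genes were called in either direction. In 6 mice on cuprizone it called 7 higher and 0 lower, where 42.1% were. Itgam, as the gate sets, was at 1037 ± 121 CPM (SD, n = 5) against 14.3 ± 4.77 on control chow, 6.18 ± 0.34 on the log2 scale. Itgb2 was at 259 ± 57.6 against 3.56 ± 1.35 CPM (6.16 ± 0.42, edgeR adjusted p = 7.8e-13). Itgb5 was at 610.2 ± 111 against 55.6 ± 21.2 CPM (3.46 ± 0.31, edgeR adjusted p = 2.65e-10). In the other cells on control chow Itgax, Itgal and Itgb2 were at a few CPM. They passed the filter mainly through the microglia libraries, and Itgax only through them, which limits their p-values. Itgax had 3 to 4 counts in these other-cell libraries at 5 weeks and 2 to 3 at 12 weeks.

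Itgax separated the pools more on cuprizone. Microglia held 26.2 ± 9.31 CPM (SD, n = 5) and other cells 1.98 ± 0.72 on control chow, a difference of 3.73 ± 1.02 (edgeR adjusted p = 0.00457). On cuprizone microglia held 361 ± 192 CPM (SD, n = 6) and other cells 3.80 ± 6.24, a difference of 6.72 ± 0.63 (edgeR adjusted p = 9.31e-09). The difference between these 2 values was not tested. In the other cells on cuprizone Itgax had 2 to 3 counts at 12 weeks and 1 to 30 at 5 weeks. It passed the filter mainly through the microglia libraries, which limits the p-value on cuprizone too. Mice of both weeks were pooled, and on cuprizone microglia held 159.9 to 276.9 CPM at 5 weeks and 380.3 to 639.7 at 12. The SD of 192 thus also holds the difference between weeks. With each library left out in turn the cuprizone difference lay between 6.38 and 8.26 and stayed called. Among the other cells on cuprizone animal 9144 held 16.45 CPM, and the rest at most 2.58. Without the libraries rich in neutrophil markers, which removed 3 of the 5 control microglia libraries, the control difference was 4.12 and no longer called (edgeR adjusted p = 0.268), and that of Itga9 was 2.78 (adjusted p = 0.21).

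Itgav and the beta-1 family differed less between the pools. Itgav was at 41.5 ± 34.4 CPM in microglia and 38.3 ± 30.4 in the other cells on control chow, a difference of -0.09 that was not called. On cuprizone Itgav was at 63.1 ± 30.5 against 31.8 ± 14.2 CPM and was not called. There edgeR called it higher in microglia with no filter on low counts and with no sex term. Itgb1 was at 381 ± 169 against 179.8 ± 28.0 CPM (1.02 ± 0.29, edgeR adjusted p = 0.00593) on control chow and 361 ± 56.7 against 185 ± 37.2 on cuprizone (0.97 ± 0.22, adjusted p = 0.000803). Itga6 was called on cuprizone (1.59 ± 0.29, edgeR adjusted p = 7.46e-05) but not on control chow (0.81, adjusted p = 0.0841), and whether the 2 differ was not tested. Itga4 was not called on either chow (1.56 and 1.15). Itga9 was higher in microglia on both (2.87 ± 0.71 and 2.59 ± 0.61).

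Itgal was the 1 member whose call turned on the pairing of the pools by animal. On control chow it was called without the animal as a block (3.24 ± 1.19, edgeR adjusted p = 0.0341) and not with it (3.28 ± 1.38, adjusted p = 0.0562). The control call was also lost without the libraries that stood apart and without those rich in neutrophil markers. On cuprizone Itgal was not called without the block (1.92, edgeR adjusted p = 0.0883) and was called with it (2.77 ± 0.99, adjusted p = 0.0259).

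**Figure D4:**
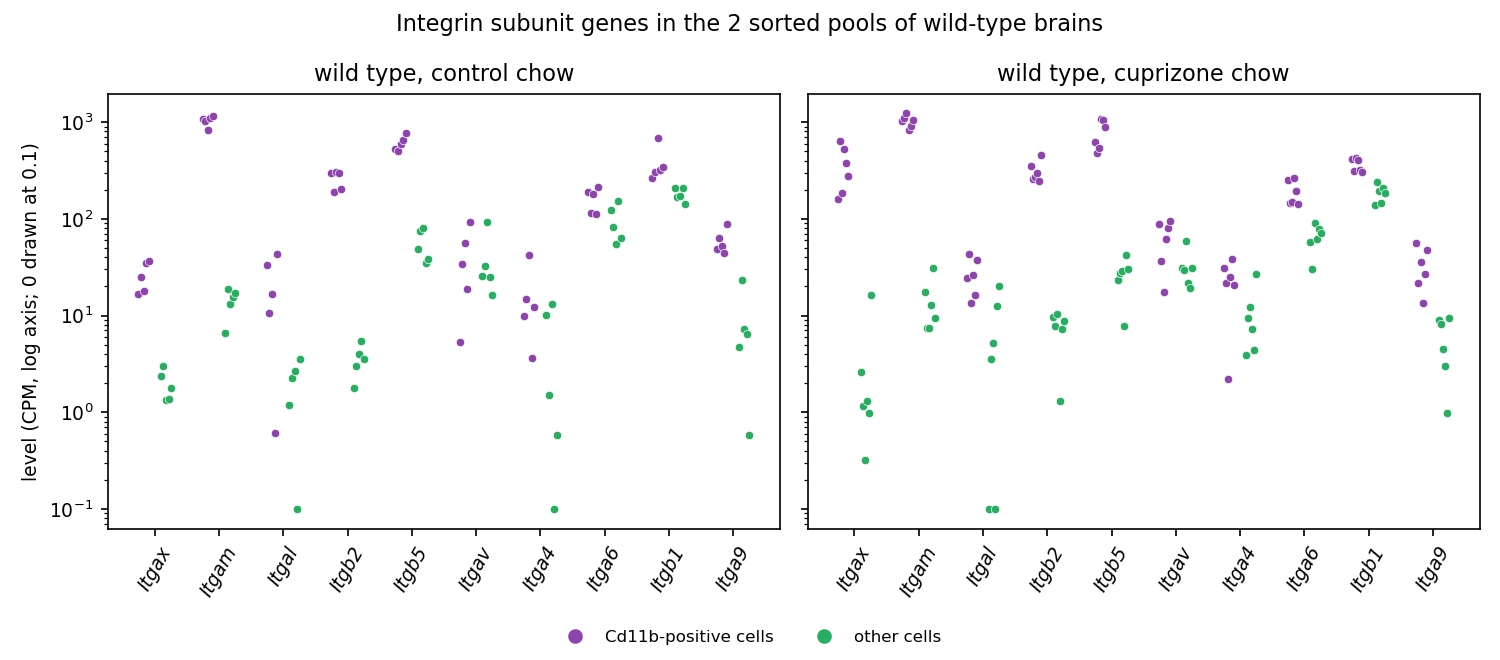
Level of the 10 genes in Cd11b-positive cells and in other cells of wild-type mice (CPM, log axis, values of 0 drawn at 0.1), 5 mice on control chow and 6 on cuprizone, each point a library. Itgam, Itgb2 and Itgb5 of the pools do not overlap on either chow, Itgax lies highest in the cuprizone microglia, and Itgav and Itga4 overlap on both.

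The genes whose levels most resembled that of Itgax were taken as the 5 with the highest Pearson correlation of log2 CPM over the 37 microglia libraries, among 8066 other genes with an average log2 CPM of at least 3. They were Clec7a (dectin-1, r = 0.91), Lpl (lipoprotein lipase, 0.89), Apoe (apolipoprotein E, 0.88), Cst7 (cystatin F, 0.88) and Lgals3 (galectin-3, 0.88). By Spearman's rho 2 of these 5 stayed among the nearest 5, Cst7 and Clec7a. Clec7a was at 714 to 1157 CPM in wild types on cuprizone at 12 weeks and at 154 to 257 in knockouts. The libraries share chow, genotype and depth, so the correlations describe the groups as much as the libraries.

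Of the other 9 integrin genes, Itgb5 was most like Itgax (r = 0.64, rank 166 of the 8066), followed by Itgb2 (0.43, rank 556). Itgam (-0.30) and Itga9 (-0.47) ran against it. Between members other than Itgax the highest correlation was that of Itgb2 with Itgb5 (0.56), and Itgav with its partner Itgb5 had 0.36. These values too are over 37 libraries that share chow and genotype.

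The remaining integrin genes were described by 3 lists: 17 other subunits, 30 ligands and 44 genes of integrin activation and adhesion. In microglia 8, 19 and 43 of them passed the filter. Of the other subunits 0 were called in any diet or genotype comparison. Of the ligands 1 was called higher for the diet in heterozygotes at 5 weeks and 3 in heterozygotes at 12 weeks, where 0.263% and 1.88% of all genes were called higher, and 0 in the other diet groups. Of the activation genes 2 were called higher in heterozygotes at 12 weeks. The medians of the 3 lists in that group were -0.55, -0.11 and 0.04, against -0.05 over all genes tested.

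Spp1, which encodes the ligand osteopontin, was at 2.13, 7.76 and 9.24 CPM in control heterozygotes at 5 weeks and at 59.0, 239 and 771 on cuprizone. It rose by 5.76 ± 1.27 (edgeR adjusted p = 0.0462), and by 5.14 ± 1.04 at 12 weeks (adjusted p = 0.00455), from 9.56 to 36.0 CPM on control chow to 611 to 889 on cuprizone. The groups did not overlap at either week. The 5-week call was lost with 5 of 6 libraries left out in turn, with voom and without the libraries that stood apart, and the 12-week call held throughout. In wild types on cuprizone at 12 weeks Spp1 was at 1054 to 1400 CPM, and in knockouts at 4.597, 9.96 and 125.6, a difference of -4.67 ± 1.17 that was not called (edgeR adjusted p = 0.0838).

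Postn (periostin, a matrix ligand of alpha-v integrins) rose in heterozygotes at 12 weeks from 0 to 3.73 CPM on control chow to 33.1, 67.1, 91.8 and 141 on cuprizone (5.35 ± 1.14, edgeR adjusted p = 0.00349). In this comparison Postn reached the filter's minimum count of 10 only in the cuprizone libraries, which limits that p-value. Fn1 (fibronectin) rose there from 1.74 to 8.09 CPM to 59.9, 74.4, 91.0 and 95.4 (4.32 ± 1.08, edgeR adjusted p = 0.0212). The Fn1 call was lost with 3 of the 8 libraries left out, each a control, and without the libraries that stood apart. Wild types on cuprizone at 12 weeks held 111, 136 and 161 CPM of Postn and 130.7, 137 and 321 of Fn1, and knockouts at most 19.0 and 28.0.

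Tyrobp and Fcer1g, adaptors with an activation motif through which beta-2 integrins, Trem2 and Fc receptors signal, were called for the diet in heterozygotes at 12 weeks, as Itgb5 was. Tyrobp was at 949 to 1600 CPM in heterozygote controls at 12 weeks and at 4415, 5079, 6183 and 6192 on cuprizone (2.07 ± 0.33, edgeR adjusted p = 0.000149). Fcer1g was at 425 to 1057 CPM and at 1275, 1305, 1552 and 1881 (1.16 ± 0.23, edgeR adjusted p = 0.000782). Both calls held with every library left out in turn. Fcer1g was also higher in these heterozygotes than in wild types, at 570.0 to 713 CPM (1.2526 ± 0.25, edgeR adjusted p = 0.00893), a call lost with 3 of 7 libraries left out.

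Against these heterozygotes, knockouts on cuprizone at 12 weeks were lower in 3 of the 43 activation genes, where 0.752% of all genes were called lower. Fcer1g fell by 1.15 ± 0.25 (edgeR adjusted p = 0.008), Tyrobp by 1.58 ± 0.36 (adjusted p = 0.0227) and Ptk2b, a kinase of integrin signalling, by 1.67 ± 0.43 (adjusted p = 0.0368). All 3 calls were lost without the libraries that stood apart, and those of Fcer1g and Ptk2b also without the libraries rich in neutrophil markers. With each of the 7 libraries left out in turn, the call was lost in 2 cases for Fcer1g, 4 for Tyrobp and 5 for Ptk2b, and that of Ptk2b was also lost with voom and with no sex term. The heterozygotes were lower in neutrophil markers than the knockouts, as given above for Itgb2, and that list's part in these differences was not tested.

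In the other cells 2 of 25 integrin ligands were called for the diet averaged over genotypes at 5 weeks and 1 at 12 weeks, where 0.443% and 0.497% of all genes were called. Mfge8 (MFG-E8, which bridges debris to alpha-v integrins) was at 320 ± 65.1 CPM (SD, n = 9) on cuprizone and 606.5 ± 121 (n = 9) on control chow at 5 weeks, and fell by 0.94 ± 0.17 on the log2 scale (edgeR adjusted p = 0.000399). At 12 weeks it was at 271 ± 87.2 CPM (n = 10) and 479 ± 141 (n = 9), and fell by 0.81 ± 0.17 (edgeR adjusted p = 0.00412). Both calls held with every library left out in turn. Edil3, a related bridging protein that binds the same receptors, rose at 5 weeks from 78.8 ± 37.3 to 148 ± 39.5 CPM (0.93 ± 0.23, edgeR adjusted p = 0.0407), a call lost with 13 of 18 libraries left out in turn.

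Between the pools of wild-type controls, the listed integrin genes differed in both directions. Of 6 other subunits tested 1 was called higher in microglia and 4 lower, of 24 ligands 3 and 15, and of 43 activation genes 22 and 6, where 14.3% of all genes were called higher and 21.3% lower. Itgb3, the beta chain of the classical vitronectin receptor, was the subunit higher in microglia (41.7 ± 35.7 against 2.65 ± 4.89 CPM, 4.11 ± 1.04, edgeR adjusted p = 0.00241). Itga1, the alpha chain of a collagen receptor (-5.62 ± 0.60, edgeR adjusted p = 7e-09), and Itgb8, the alpha-v partner that activates TGF-beta (-4.76 ± 0.61, adjusted p = 2.08e-07), lay in the other cells. The kinase Syk, which acts below beta-2 integrins, was higher in microglia (6.09 ± 0.79, edgeR adjusted p = 2.99e-07). The medians of the 3 lists were -4.41, -3.51 and 0.72, against -0.13 over all genes.

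On cuprizone 2 of 9 other subunits were called higher in microglia and 6 lower, 6 and 14 of 23 ligands, and 22 and 10 of 43 activation genes, where 16.8% of all genes were called higher and 25.2% lower. Itga5, the alpha chain of the classical fibronectin receptor, was at 16.9 ± 12.0 CPM (SD, n = 6) in microglia and 0.0809 ± 0.198 in the other cells, values given without a test because it passed the filter only through the microglia libraries. Itgb3, Itga1, Itgb8 and Syk on control chow, and Itgb4 and Icam1 on cuprizone, were also at a few CPM or less in their lower pool. They passed the filter mainly through the pool where they were high, which limits their p-values. Itgb4, a laminin receptor chain of barrier cells, lay in the other cells (-5.80 ± 1.02, edgeR adjusted p = 5.89e-05). Spp1 (1051 ± 429.8 against 9.05 ± 7.75 CPM, edgeR adjusted p = 7.57e-11) and the ligand of LFA-1 and CD11b Icam1 (88.7 ± 23.7 against 2.05 ± 3.65, adjusted p = 2.36e-07) were higher in microglia.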

How the data were processed

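The deposited table holds whole-number counts per gene, made by the authors from QuantSeq forward 3' tag libraries, per the labels' protocols. Tools listed in the submitters' processing notes are STAR, MultiQC, FastQC 0.11.5 and R 3.4.3, with GRCm38.p6 as the build. How genes were counted, on which annotation, with or without strand, and whether molecular identifiers were collapsed is not given in the sources used here. A 3' tag count does not scale with transcript length, and levels were compared between samples, not between genes. All 74 columns matched a sample by name. No pair of the 2701 library pairs was a repeat deposit (lowest chi-square per degree of freedom 7.84).

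Within each pool, counts were filtered with filterByExpr (minimum count 10), scaled by TMM and fitted across all genes with edgeR 4.0.16 (R 4.3.3) by robust quasi-likelihood, with 12 group means and sex, with a Benjamini-Hochberg adjustment of p over all genes of a comparison and a threshold of 0.05. The 10 genes were read in 38 comparisons. The standard error is the log2 fold change divided by the square root of F. Pools were compared within wild types on each chow, with week and sex as terms. The 2 libraries of an animal come from the same brain per the labels, which pairs them, although their deviations correlated at only -0.11 to 0.04 on control chow and -0.02 to 0.07 on cuprizone, and a fit with the animal as a block was also made. Log2 CPM for correlations used a prior count of 2. The fit was tested on simulated data. Replicates are separate animals. No batch or date is given in the labels, and RNA integrity, given for some libraries, was not used.

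All 10 genes are described. From each list of other integrin genes, up to 4 called genes with the largest change per comparison could be named, and the 5 genes most correlated with Itgax were taken. The members and the lists, markers included, were chosen with earlier results of these data known. The alternatives were DESeq2 1.42.0 size factors, its Wald test (for the other cells with the dispersion trend fitted locally), limma 3.58.1 voom with quality weights, no filter, no sex term, the animal block, Spearman's rho and each library left out. Chosen after seeing the data were fits without the libraries beyond 30 on the first principal component and without microglia libraries of over 3000 CPM of neutrophil markers.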

Additional observations from a re-analysis of the deposited data

Results flagged for a closer look

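With 4 animals in a group, 1 library can be set against the others by its distance. Over the 10 genes and the 4 such groups this was done 40 times, and 2 libraries lay far from the other 3 of their group. That share is no higher than the about 1 in 20 that chance gives. Itga4 in microglia of heterozygotes on control chow at 12 weeks was at 36.7 CPM in animal 943 and at 0, 0 and 1.33 in the other animals. That animal is the male of its group. Itga9 in the other cells of heterozygotes on cuprizone at 12 weeks was at 5.299 CPM in animal 6296 and at 0.543, 0.726 and 1.16 in the rest, which is 9 counts against 1, 1 and 2.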

How the results depend on the processing

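No direction of a called value reversed under any alternative. The 2 genotype calls in microglia became 7 with DESeq2's Wald test, 6 with limma voom, 5 with no filter on low counts and 5 without the libraries that stood apart, and 1 to 4 with each library left out (1 without the knockout of animal 981 and 4 without the heterozygote of animal 1040, both on cuprizone at 12 weeks). The 0 interaction calls became 1 with the Wald test and 2 with no filter, and the 0 calls between weeks became 2 with voom. The cause was not tested. The 4 diet calls lay between 3 and 6 in all alternatives, and the 0 calls in the other cells stayed 0. The 14 calls between pools were 14 with the replicate block of the animal, with only Itgal changing sides, and lay between 11 and 16 elsewhere. At the depth of the microglia libraries 3 counts, the floor used, stand for 0.76 to 2.87 CPM, so that Itgax in knockout controls, Itgal and Itga4 are near the limit of detection in several libraries. With 2 to 4 animals a group, adjusted p-values close to 0.05 moved across the threshold. That of Itgax in wild types at 5 weeks did so with the tool or setting. That of Itgb5 in heterozygotes at 12 weeks did so with a single library.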
